A study of Homo sapiens with 6 samples.

Results

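The clustered protocadherins are cell surface cadherins encoded in 3 neighbouring gene clusters, alpha, beta and gamma, on human chromosome 5. They were taken as every symbol in the count files made of PCDHA, PCDHB, PCDHGA or PCDHGB and a number, or of PCDHAC or PCDHGC and the number of a C-type isoform, whatever its level. This gave 53 of 26485 symbols: 15 alpha, 16 beta and 22 gamma members, the last made up of the A, B and C types. All 53 had at least 1 count in at least 1 library. The pseudogenes of the clusters fell outside the rule.

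RNA was sequenced from AF22, an established human neural stem cell line derived from induced pluripotent stem cells. The control group held 3 libraries of cells labelled WT that carried a control short hairpin RNA (shControl). The other group held 3 libraries labelled as a knockdown of BMI1 and COMMD3-BMI1 (BMI1/COMMD3-BMI1_KD). BMI1 belongs to Polycomb repressive complex 1, which silences developmental genes, and COMMD3-BMI1 is a read-through transcript that joins it to the neighbouring gene COMMD3. None of the sources used here gives the hairpin sequences, the time after delivery, or whether libraries of a group came from separate cultures. The p-values therefore measure spread that may be technical. All 6 libraries come from 1 cell line.

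Clustered protocadherins bind the same isoform on a facing membrane, and the set that a neuron makes works as a surface identity with which it tells its own branches from those of other cells. Each alpha or gamma variable exon has its own promoter and is spliced to constant exons shared by its whole cluster, whereas beta genes have a single coding exon and no shared constant part. Promoter choice depends on DNA methylation and on looping by CTCF and cohesin to distant enhancers, and most of the promoters hold a short conserved sequence element with the core CGCT. The C-type isoforms are set apart in neurons, where they are made more constitutively than the other alpha and gamma isoforms.

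In GENCODE 29 (GRCh38) all 15 alpha members hold the same 3 constant exons, at chr5:140978949-140979007, chr5:140982475-140982563 and chr5:141009627-141012344. All 22 gamma members likewise hold 3, at chr5:141494807-141494865, chr5:141505393-141505481 and chr5:141510947-141512979. A read from these exons names the cluster and not the isoform. PCDHA10 had 0 to 3 counts per library where PCDHA1 had 254 to 574, so constant-exon reads were not added to every isoform. Whether they were dropped or given to 1 symbol is not shown by the files, and this limits the levels of PCDHA1 and PCDHGC3, the highest members of their clusters. Antisense long noncoding genes overlie the region, and no source used here gives the strand setting of the counting.

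The promoter stretches below belong to members on which the results turn, and show how far promoters of the same cluster resemble each other around the CGCT core. RefSeq windows (GRCh38.p14, from 250 bases before to 50 bases after the start) were found for 47 of the 53 members. Each stretch is 30 bases on the plus strand, 5′ to 3′, around the CGCT nearest to 60 bases before the start. Capitals mark CGCT or, in beta genes, the longer word GTGGCGCT that contains it. In PCDHA4, PCDHA11 and PCDHB14 the stretch lies inside the GENCODE gene, which starts further upstream. The alpha stretches are those of the 3 members of highest level per length and 2 others whose levels differed between libraries or groups.
PCDHA1, chr5:140786089-140786118: ggccacatgatgtCGCTgtacaccacaaag
PCDHA4, chr5:140806982-140807011: agccacatgatgtCGCTctttaccacaaaa
PCDHA6, chr5:140827900-140827929: agccgcatgatgtCGCTgtctaccatgaag
PCDHA11, chr5:140868886-140868915: aggcgcaaggtgtCGCTctttacttggtgg
PCDHA12, chr5:140875247-140875276: agtcacatgatgtCGCTctacactcagaag
The beta stretches are from the members named in the comparisons further on.
PCDHB2, chr5:141094547-141094576: agacgcgggGTGGCGCTgcagccttagaag
PCDHB5, chr5:141135182-141135211: ggacgcctgGTGGCGCTgcaggctaagagt
PCDHB10, chr5:141192302-141192331: ggccacacgGTGGCGCTgcaggctaaagag
PCDHB13, chr5:141213868-141213897: ggacgcgtgGTGGCGCTgcaggataagaag
PCDHB14, chr5:141223266-141223295: agacacatgGTGGCGCTacaggataagacg
PCDHB15, chr5:141245317-141245346: caacgcatgGTGGCGCTgcaggctaaggct
The gamma stretches are of A and B types.
PCDHGA6, chr5:141373838-141373867: ggactctaagcgtCGCTgttgaccaacctg
PCDHGA7, chr5:141382652-141382681: ggactcacagcgcCGCTgttcaccaaccag
PCDHGA10, chr5:141412934-141412963: ggactctgagcgcCGCTgttcacctactag
PCDHGB4, chr5:141387620-141387649: tgactctgggcgcCGCTgttggccaaagtg
PCDHGB6, chr5:141407951-141407980: agtgcagagcaagCGCTgacgccggggatc
On either strand CGCT occurred in 46 of the 47 members with a window, PCDHA9 being the exception, and in 70% of all 35116 RefSeq promoter windows of this length, so the 4 letters alone are common. GTGGCGCT, a word picked after the sequences were seen, occurred on either strand in 13 of 14 beta members (not in PCDHB1), in 0 of 13 alpha members, in 0 of 20 gamma members and in 1.15% of all windows. Over whole clusters few positions held the same base in every stretch: 4 of 30 in 12 alpha stretches and 4 in 20 gamma stretches, which are CGCT itself, and 7 in 13 beta stretches, 3 of them outside CGCT. Within subgroups the number outside CGCT was 7 in the 10 alpha members numbered A1 to A13, 8 in the 11 of the gamma A type and 1 in the 7 of the gamma B type. It was 10 in the 12 beta stretches with GTGGCGCT, but these were chosen for that word, which fixes its other 4 letters too. The gamma B figure depends on which match is taken: the PCDHGB6 window also holds, further upstream, a CGCT in letters like those of the PCDHGB4 stretch, and the stretch shown is only the match nearest to the chosen distance. A match is a description of letters and not of a bound site.

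Total counts ran from 4962745 to 9640349 per library, and the 53 members took 3547 to 8917 of them (0.0703% to 0.122%). BMI1 itself was at 85.1, 90.0 and 87.4 CPM (counts scaled to library size) in control libraries 1, 2 and 3 and at 39.9, 21.5 and 26.2 CPM in knockdown libraries 1, 2 and 3, so the libraries match their labels and knockdown library 1 kept the most. Knockdown library 2 stood apart over all genes: its score on principal component 1, which held 49.2% of the variance, was 40.2, against -25.5 to 11.5 for the other 5. Of 13 neural stem cell markers 12 had counts, whereas HES5 had 0 counts in every library. NES was at 577 CPM in knockdown library 2 and at 975 to 1068 CPM in the other 5. SOX2 was at 282 to 386 CPM, also lowest in knockdown library 2. Of 14 neuronal markers 10 passed the filter, among them MAP2 (467 to 593 CPM) and NEFM (61.6 to 240.4 CPM), while RBFOX3 and ELAVL4 had 0 counts in every library and DCX 1 to 7.

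Each cluster was read mainly from a few members. Per kilobase of exon not shared with another gene, PCDHGC3 was the highest member at 88.9 CPM per kb (mean of 6 libraries, range 77.5 to 120). PCDHGC3 is a C-type isoform known to bind Axin1 and to damp Wnt signalling. PCDHGB6 (20.1 CPM per kb, 11.3 to 29.4) and PCDHGA10 (9.04, 3.87 to 19.5), a B-type and an A-type isoform with their own variable ectodomains, followed in gamma. Those ranges do not overlap with PCDHGC3, while PCDHGB6 and PCDHGA10 overlap with each other. In beta the order was PCDHB5 (25.3 CPM per kb, 20.3 to 36.2), PCDHB2 (12.1, 9.48 to 18.9) and PCDHB10 (5.57, 3.97 to 9.82). PCDHB5 lay above PCDHB2 in every library, and the lowest value of PCDHB2 fell just under the highest of PCDHB10. In alpha PCDHA1 (20.7 CPM per kb, 17.1 to 28.4) and PCDHA6 (7.04, 5.32 to 8.48) led, without overlap. PCDHA12 (3.19, 1.06 to 8.83), PCDHA11 (2.68, 1.03 to 6.03) and PCDHA2 (2.14, 1.496 to 3.29) came next with ranges that overlap. The length used matters here: per kilobase of coding bases PCDHA4, which has 10574 unshared exon bases in GENCODE, moved from the sixth place in alpha to the third (8.66 CPM per kb), and PCDHB14 from the fourth in beta to the third (8.93).

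The 3 members of highest level per length took 61.2% to 66.6% of all alpha counts, 63.0% to 68.7% of beta counts and 79.9% to 86.4% of gamma counts, depending on the library. By counts, which favour long exons, PCDHA4 replaced PCDHA12 and PCDHB14 replaced PCDHB10 among the 3 leaders, and the shares were 64.5% to 78.6% for alpha and 61.5% to 74.1% for beta, with gamma as before. Median levels over all members of a cluster were 0.799 CPM per kb for alpha, 1.15 for beta and 0.588 for gamma. At the other end, PCDHB1, the first beta gene, had 1 count in the 6 libraries together, PCDHGB5 had 0 to 4 counts, PCDHA10 0 to 3 and PCDHA9 1 to 4. Level did not follow the order of the genes closely: Spearman's rho between position and CPM per kb was -0.17 over 15 alpha, 0.26 over 16 beta and 0.23 over 22 gamma members, given without a test because members share libraries and lengths differ. Members of very unlike level sat side by side: in control library 2 PCDHA9 had 1 count, PCDHA10 3, and PCDHA11, the next gene, 87.

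**Figure D1:**
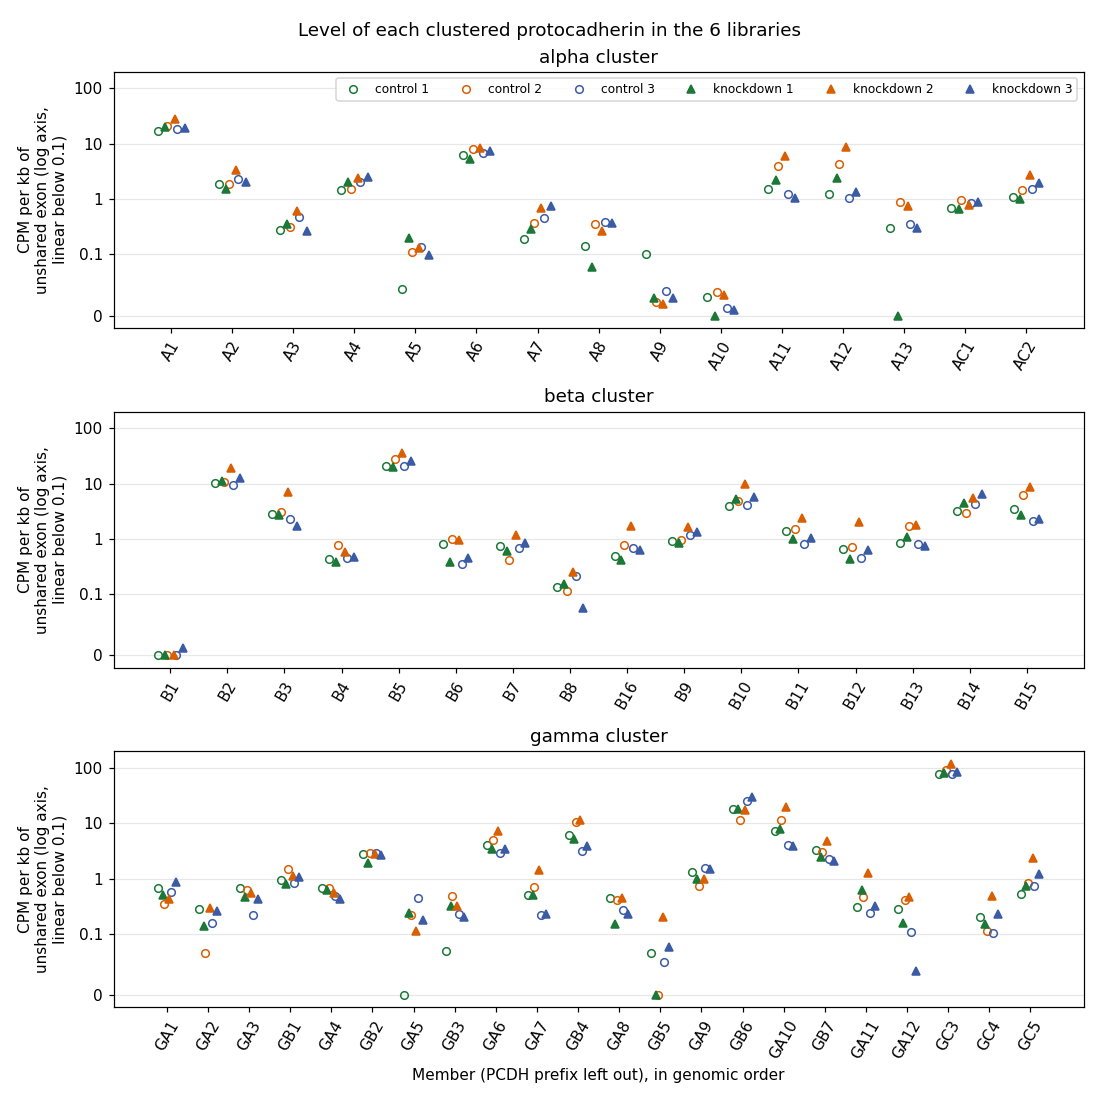
Level of each of the 53 members in every library, in CPM per kilobase of exon not shared with another gene (log axis, linear below 0.1), in genomic order within the alpha, beta and gamma clusters; open circles are control and triangles knockdown libraries, and colours give the library number. PCDHGC3 is the highest of all at 77.5 to 120 CPM per kb, and most members lie far below the 3 leaders of their cluster.

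The 5 C-type isoforms lie at the downstream ends of the alpha and gamma clusters and differed widely in level. PCDHAC1 was at 2.76, 3.86 and 3.46 CPM in controls and 2.69, 3.11 and 3.67 CPM in knockdown libraries. PCDHAC2, which takes part in axon tiling of serotonergic neurons, was at 3.49, 4.64 and 4.91 CPM in controls and 3.31, 8.92 and 6.29 CPM in knockdown libraries. Those 2 alpha C-types lay in the middle of their cluster by level per length. PCDHGC4, an isoform linked to neuronal survival, had only 2 to 10 counts per library and was too low to test. PCDHGC5, which binds GABA-A receptors, had 8, 15 and 14 counts in controls and 10, 49 and 32 in knockdown libraries, against 1135 to 2526 for PCDHGC3 over the 6 libraries.

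Whether knockdown of BMI1 and COMMD3-BMI1 changed these genes was examined with edgeR's quasi-likelihood test on the counts of all genes. A filter on low counts left 12937 genes, among them 37 of the 53 members (8 alpha, 14 beta, 15 gamma). The 16 members under the filter had at most 21 counts in any library (7 alpha), 5 (2 beta) and 11 (7 gamma). Comparing 3 with 3 libraries, 0 members and 0 of all tested genes (0%) had a Benjamini-Hochberg adjusted p under 0.05. At an unadjusted p under 0.05 there were 5 members and 1869 genes. DESeq2 called 0 members and 142 genes, and limma voom 0 of either. The libraries carry the same numbers 1 to 3 in both groups, and same-numbered libraries deviated together from their group means, so the number was also fitted as a block. In that paired fit 4.63% of all genes were higher and 5.39% lower in knockdown, and 5 of the 37 members were higher and 0 lower. The 5 were the alpha members PCDHA4 and PCDHA12 and the beta members PCDHB2, PCDHB10 and PCDHB14.

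Among the alpha members, PCDHA4 was at 15.1, 16.2 and 21.2 CPM in control libraries 1, 2 and 3 and at 21.5, 25.1 and 26.1 CPM in knockdown libraries 1, 2 and 3. Every knockdown library lay above every control library, although control library 3 came close to knockdown library 1. The paired log2 fold change was 0.47 (SE 0.12, edgeR adjusted p = 0.0445), and it lost the call without pair 1 (adjusted p = 0.0974) and without pair 3 (0.0703). PCDHA12 was at 3.12, 11.1 and 2.74 CPM in controls and at 6.20, 22.8 and 3.46 CPM in knockdown libraries. It was higher in knockdown within each pair, but control library 2 exceeded knockdown libraries 1 and 3, so the groups overlap. Its paired log2 fold change was 0.88 (SE 0.199, edgeR adjusted p = 0.0333) and was not called without pair 2 (0.65, adjusted p = 0.157). Leaving knockdown library 2 out of the unpaired fit turned its sign, to -0.30. PCDHA6, with 20.8, 26.6 and 21.9 CPM in controls and 17.4, 27.7 and 23.7 CPM in knockdown libraries, showed a paired difference of -0.0041 (SE 0.117). PCDHA1 had 46.7, 57.7 and 50.1 CPM in controls and 55.2, 77.6 and 52.5 CPM in knockdown libraries, and its paired log2 fold change of 0.25 did not pass (SE 0.0911, edgeR adjusted p = 0.114). PCDHAC1 had the lowest fold change in alpha, -0.086 in the paired fit (SE 0.24).

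Among the beta members, PCDHB14 was at 15.4, 13.9 and 20.5 CPM in controls and 21.1, 26.6 and 30.7 CPM in knockdown libraries. The groups did not overlap, although control library 3 came close to knockdown library 1. Its paired log2 fold change of 0.66 (SE 0.128, edgeR adjusted p = 0.0261) was called without any 1 of the pairs, and it was the only member also called by DESeq2 with the block. PCDHB10 was at 13.05, 15.9 and 13.3 CPM in controls and 17.0, 32.3 and 18.4 CPM in knockdown libraries, a paired log2 fold change of 0.66 (SE 0.152, edgeR adjusted p = 0.035). Knockdown library 2 was the highest by far, and the value was 0.43 without pair 2, moving by over 1.5 times but still called (adjusted p = 0.033). PCDHB2 was at 41.5, 44.7 and 39.1 CPM in controls and 45.1, 78.1 and 52.0 CPM in knockdown libraries, with a margin of less than 1 CPM between control library 2 and knockdown library 1. Its paired log2 fold change was 0.47 (SE 0.123, edgeR adjusted p = 0.0467) and 0.29 without pair 2 (adjusted p = 0.0186). PCDHB5, the highest beta member, had 71.8, 95.4 and 71.7 CPM in controls and 69.1, 123 and 86.6 CPM in knockdown libraries and did not pass (0.21, SE 0.0893, adjusted p = 0.159). PCDHB12 had the highest unpaired log2 fold change in beta, 0.78 (SE 0.563), and PCDHB6 the lowest, -0.22 (SE 0.482). Both rest on few counts, 8 to 58 and 6 to 23 per library, and neither passed.

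No gamma member passed in either fit. PCDHGC3 was at 221, 264 and 223 CPM in controls and 235, 341 and 237 CPM in knockdown libraries, a paired log2 fold change of 0.19 (SE 0.0752, adjusted p = 0.147). PCDHGB6 was at 83.2, 51.8 and 118 CPM in controls and 85.0, 80.3 and 135 CPM in knockdown libraries (0.28, SE 0.106, adjusted p = 0.125). In both of these genes the knockdown library was the higher within each pair, while the groups overlapped. PCDHGA10, at 32.9, 51.6 and 18.3 CPM in controls and 34.7, 87.2 and 17.3 CPM in knockdown libraries, differed far more between numbers than between groups (0.33, SE 0.155, adjusted p = 0.198). The highest paired values in gamma were those of the low members PCDHGA11 (1.09, SE 0.333, adjusted p = 0.0718; 6 to 34 counts) and PCDHGC5 (1.04, SE 0.288, adjusted p = 0.0552). PCDHGA8, with 3 to 14 counts, had the lowest (-0.36, SE 0.399).

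**Figure D2:**
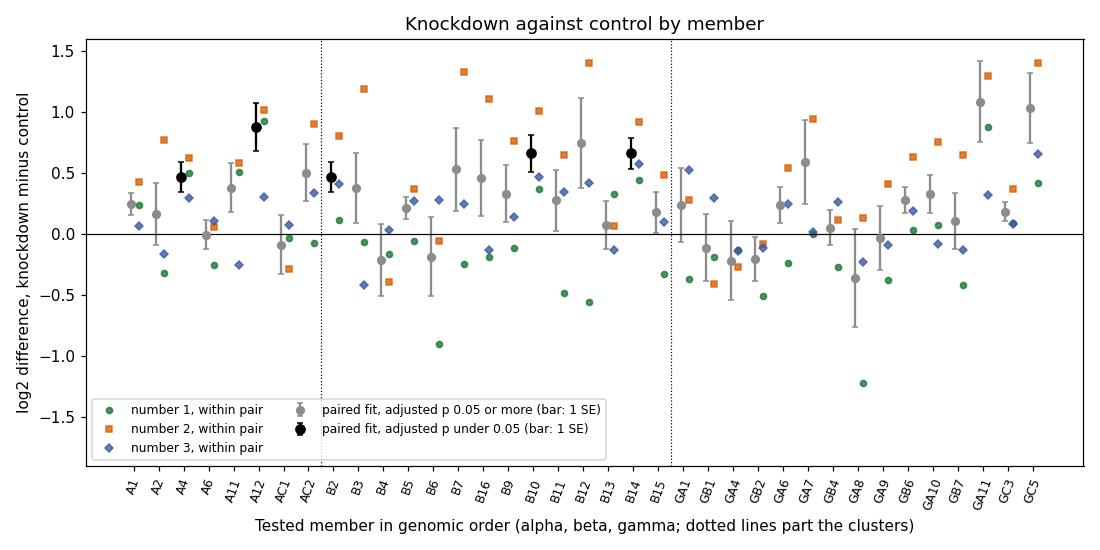
Log2 difference of knockdown minus control for the 37 tested members in genomic order; small symbols are the differences within the 3 same-numbered pairs, and large circles the paired edgeR estimate with a bar of 1 SE (black where the adjusted p is under 0.05). The 5 black points are PCDHA4, PCDHA12, PCDHB2, PCDHB10 and PCDHB14, and the squares of pair 2 lie above most of the others.

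As a list, the 37 tested members had a median unpaired log2 fold change of 0.25, with 29 above 0, where the median of all 12937 genes was -0.0029. By cluster the median was 0.35 for alpha, 0.41 for beta and 0.20 for gamma. The median difference was -0.11 within pair 1 (14 of 37 members above 0), 0.62 within pair 2 (31) and 0.14 within pair 3 (26). When knockdown library 2 was left out, the unpaired median was -0.17, with 13 of 38 members above 0, and without pair 2 the paired median was 0.067, with 21 of 32 above 0. The size of the shift, and in the unpaired fit its sign, thus depended on knockdown library 2, which also stood apart over all genes. That unpaired fit kept control library 2, the highest control in 26 of the 37 members. Groups did not overlap in 5 of the 37 members, 4 higher (PCDHA4, PCDHB2, PCDHB10, PCDHB14) and 1 lower (PCDHGB2), a smaller share than the 20.5% of all tested genes. PCDHGB2 had 7.17, 7.57 and 7.50 CPM in controls and 4.96, 7.16 and 6.91 CPM in knockdown libraries, so that knockdown library 2 lay barely under the lowest control.

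The clusters were also summed over all their members, which gives most weight to the few high members. Alpha took 106, 145 and 120 CPM in control libraries 1, 2 and 3 and 121, 202 and 130 CPM in knockdown libraries (log2 ratio of means 0.29). Beta took 192, 238 and 185 CPM against 195, 371 and 229 CPM (0.37), and gamma 413, 460 and 417 CPM against 418, 632 and 453 CPM (0.22). In each cluster knockdown library 2 was the highest of the 6 and control library 2 the highest control. Without knockdown library 2, but with control library 2 kept, the log2 ratios were 0.021, 0.048 and 0.019. Within pairs 1, 2 and 3 the log2 ratios were 0.19, 0.48 and 0.11 for alpha. They were 0.022, 0.64 and 0.31 for beta, and 0.017, 0.46 and 0.12 for gamma. In pair 1 the sums were thus slightly higher in knockdown, whereas the median of the 37 tested members was -0.11. In bulk RNA fewer cells making an isoform and less of it per cell cannot be told apart.

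Members also differed between library numbers, in a like way in both groups for numbers 2 and 3 but hardly for number 1. A test of the library number in the paired fit (F test on the 3 numbers, chosen after the counts had been seen) passed for 6.07% of all genes and for 11 of the 37 members, 2 alpha, 3 beta and 6 gamma. In 10 of the 11 the libraries numbered 2 were highest: PCDHA11, PCDHA12, PCDHB5, PCDHB13, PCDHB15, PCDHGA6, PCDHGA7, PCDHGB4, PCDHGA10 and PCDHGC3. PCDHGB6 was highest in the libraries numbered 3. Of the 785 tested genes that passed, 459 had number 2 highest, 183 number 3 and 143 number 1. Nothing in the labels says what a number stands for.

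PCDHA12 and its neighbour PCDHA11 were the clearest case in alpha. PCDHA11 stood at 13.4 CPM in control library 2 and 20.3 CPM in knockdown library 2, and at 5.15, 4.18, 7.44 and 3.46 CPM in control 1, control 3, knockdown 1 and knockdown 3 (edgeR adjusted p of the number = 0.00617). PCDHA12, whose values are given above, was 1.86 log2 units higher in number 2 than in number 1 (adjusted p = 0.00403), and 0.88 higher in knockdown than in control. Between number 3 and number 1 the differences were -0.74 for PCDHA11 and -0.60 for PCDHA12. The pair therefore sat at its lowest in number 3, while PCDHA10, directly upstream of PCDHA11, was at or near 0 in every library.

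In beta, PCDHB15, the last gene of its cluster, was at 24.4 and 34.3 CPM in control and knockdown library 2, and at 13.8, 8.51, 10.96 and 9.11 CPM in control 1, control 3, knockdown 1 and knockdown 3 (adjusted p = 0.00656). PCDHB14, the gene directly before it, did not pass (adjusted p = 0.137) but ran the other way. Between number 3 and number 1 the differences were 0.48 log2 units for PCDHB14 and -0.51 for PCDHB15. PCDHB13, at 8.66 and 9.06 CPM in the number 2 libraries and 3.67 to 5.38 CPM in the other 4, passed as well (0.0361). PCDHB5 passed with a smaller difference, 0.62 log2 units between numbers 2 and 1 (0.0281).

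Among the members past the number test, only gamma held some that moved in opposite directions between numbers 2 and 1. Between numbers 3 and 1 the beta members past the test also differed in sign. The values were 0.16 for PCDHB5, -0.32 for PCDHB13 and -0.51 for PCDHB15. In alpha, PCDHA4 was highest in number 3 in both groups, unlike PCDHA11 and PCDHA12, but did not pass (adjusted p = 0.231). PCDHGA10 was 1.01 log2 units higher in number 2 than in number 1, and its difference between number 3 and number 1 was -0.94 (adjusted p = 0.00444). Its upstream neighbour PCDHGB6 ran the other way, highest in number 3 (118 and 135 CPM), lowest in control 2 (51.8 CPM), and 0.58 higher in number 3 than in number 1 (adjusted p = 0.0129). PCDHGB4 followed PCDHGA10: 25.8 and 28.0 CPM in the number 2 libraries, 15.3 and 12.6 CPM in number 1 and 7.79 and 9.43 CPM in number 3 (adjusted p = 0.00532). PCDHGA6 (16.4 to 41.1 CPM, adjusted p = 0.035) and PCDHGA7 (5 to 35 counts, adjusted p = 0.0363) had the same order. PCDHGC3 differed least, 0.40 log2 units between numbers 2 and 1 (adjusted p = 0.0452).

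Both number 2 libraries lay above all other 4 in 19 of 37 members (4 of 8 alpha, 9 of 14 beta, 6 of 15 gamma), against 10.5% of all tested genes. Both number 3 libraries did so in 2 of 37, PCDHGA9 and PCDHGB6, against 6.76% of all genes, and both number 1 libraries in 0 of 37, against 13.3%. This count does not rest on the F test, but it uses the same libraries. The pattern is also seen in the controls and knockdown libraries taken apart. Control library 2 was the highest control in 26 of 37 members, against 33.3% of all tested genes. Knockdown library 2 was the highest knockdown library in 30 of 37, against 38.2% of all tested genes. As profiles over the 37 members, with each cluster's mean removed, the deviations of control and knockdown library from their group means correlated at 0.76 for number 2 and 0.82 for number 3, but at 0.088 for number 1, and at -0.81 to 0.15 for unlike numbers. These are correlations across genes of the same libraries, given as a description. Leaving out 1 library left 8 to 26 members past the number test (8 without knockdown 1, 26 without control 2, 19 without control 3), and 12 without knockdown library 2. The count of all genes past the test also moved widely in these fits, as given in the last section. The member counts therefore cannot be read alone.

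**Figure D3:**
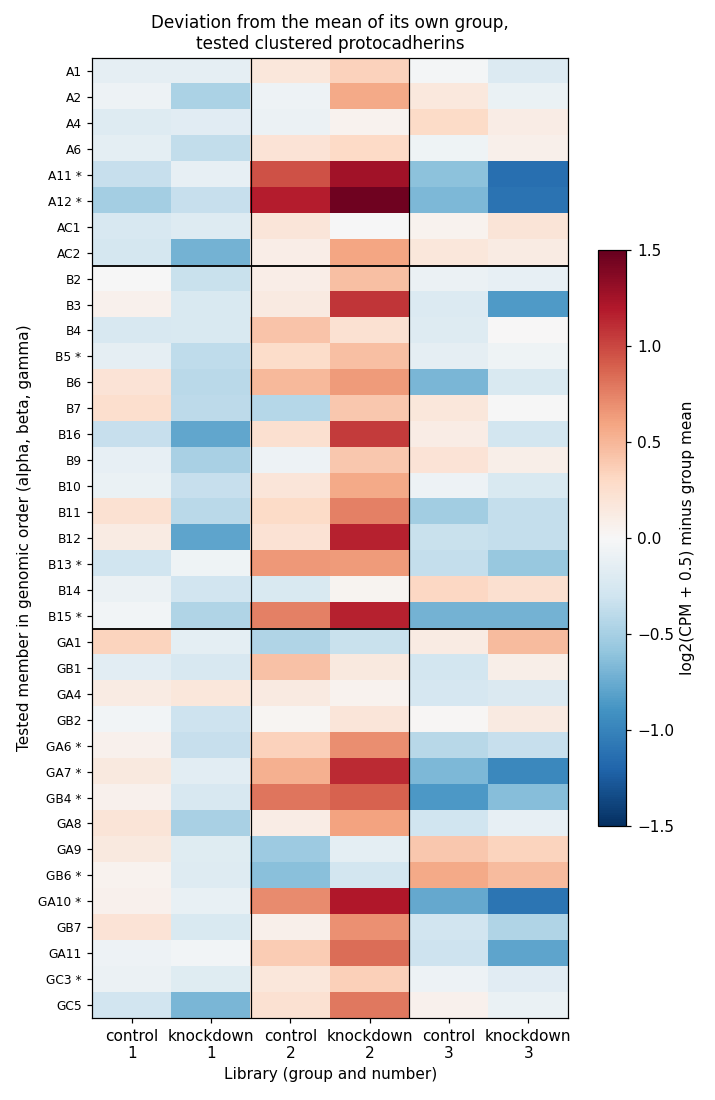
Deviation of each tested member from the mean of its own group, as log2(CPM + 0.5), with members as rows in genomic order and the 6 libraries as columns ordered by number; red is above and blue below the group mean, and an asterisk marks the 11 members past the number test. The columns of control 2 and knockdown 2 are red for PCDHA11, PCDHA12, PCDHB15, PCDHGB4 and PCDHGA10, and PCDHGB6 is red in the columns of number 3.

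Shares of the cluster's own counts, which do not depend on library size, also differed by number in some members. PCDHA12, PCDHB15, PCDHGA10 and PCDHGB6 had passed the number test on the same counts, so their shares are no separate support. PCDHA12 made 2.95% of alpha counts in control 1 (95% Wilson interval 1.85% to 4.67%), 7.68% in control 2 (6.14% to 9.56%) and 2.28% in control 3 (1.46% to 3.53%), and 5.12%, 11.3% and 2.66% in knockdown libraries 1, 2 and 3. The intervals cover counting error only. PCDHB15 made 7.19%, 10.3% and 4.61% of beta counts in controls and 5.63%, 9.26% and 3.99% in knockdown libraries. PCDHGA10 made 7.97%, 11.2% and 4.40% of gamma counts in controls and 8.32%, 13.8% and 3.82% in knockdown libraries, whereas PCDHGB6 made 20.2%, 11.3% and 28.4% and then 20.3%, 12.7% and 29.9%. For PCDHA12, PCDHB15, PCDHGA10 and PCDHGB6 the intervals of number 2 and number 3 were apart in both groups. The same held for PCDHB14, which had not passed the number test and was the higher in number 3. PCDHGC3 held 53.5%, 57.4% and 53.6% in controls and 56.2%, 54.0% and 52.3% in knockdown libraries, and PCDHA1 38.3% to 45.6% of alpha over the 6 libraries.

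**Figure D4:**
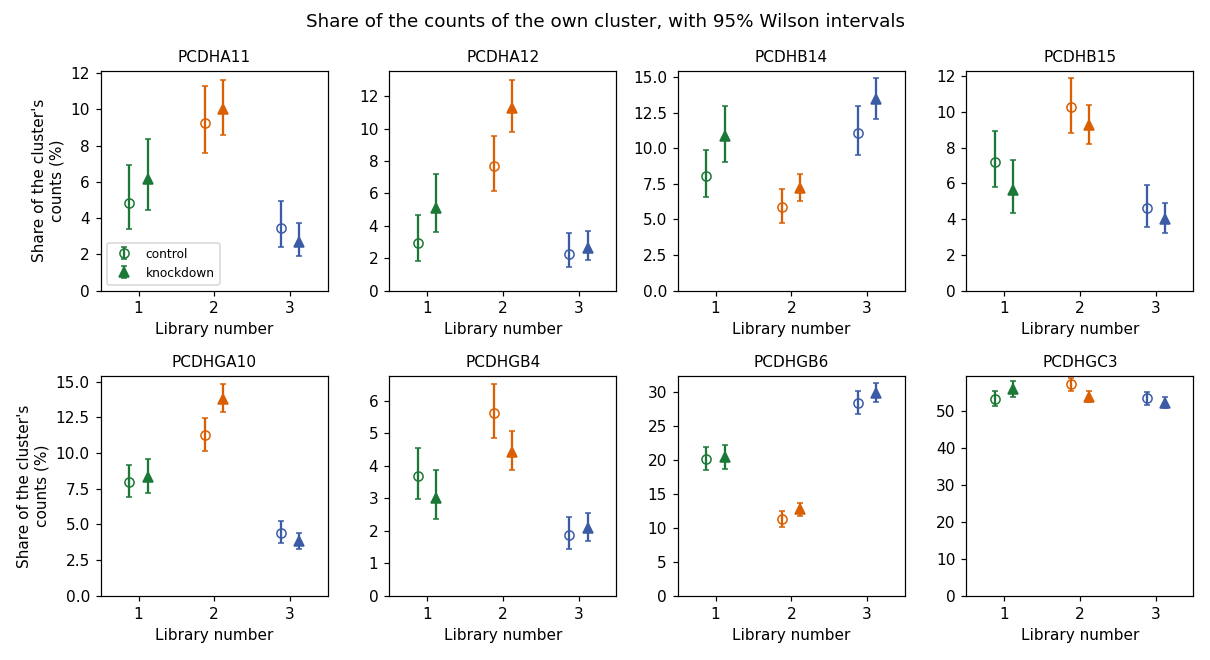
Share of the counts of its own cluster, in percent, that each of 8 members took in the 6 libraries, by library number; circles are control and triangles knockdown libraries, and bars are 95% Wilson intervals for counting error only. PCDHGA10 and PCDHGB6 run in opposite directions over the numbers, at 11.2% and 11.3% in control library 2 and 4.40% and 28.4% in control library 3.

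Genes that act on protocadherin promoters were looked at beside them. Of 22 tested factors for chromatin architecture and silencing, CTCF and cohesin subunits among them, 0 were called in the unpaired fit, and 0 were higher and 2 lower in the paired fit, where 4.63% and 5.39% of all genes were. SMC1A, a cohesin subunit, was at 338, 283 and 271 CPM in controls and 309, 185 and 196 CPM in knockdown libraries (-0.40, SE 0.0908, adjusted p = 0.033). DNMT1, the maintenance DNA methyltransferase, was at 325, 299 and 275 CPM in controls and 268, 175 and 205 CPM in knockdown libraries (-0.49, SE 0.0922, adjusted p = 0.0256). SMC1A also differed by library number (adjusted p = 0.0429), with its highest values in number 1. Of 18 tested partners and effectors 1 was called in the paired fit, a share near the 4.63% of all genes: ADAM10, the protease that sheds protocadherin ectodomains. It was at 199, 209 and 208 CPM in controls and 237, 309 and 268 CPM in knockdown libraries (0.40, SE 0.0741, adjusted p = 0.0256).

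The 5q31 neighbours of the clusters served as a view of the chromosomal region. Of 20 tested, 1 was called in the paired fit, again near the share of all genes, NDFIP1 (159, 153 and 162 CPM against 189, 188 and 186 CPM, 0.25, SE 0.0622, adjusted p = 0.0429), and 0 of the 20 passed the number test. Their median log2 fold change was 0.085, beside 0.25 for the protocadherins.

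Markers of some other cell types moved with group and number. Over all genes 4.63% were higher and 5.39% lower in the paired fit, and 6.07% passed the number test. Of 10 tested neuronal markers 3 were lower in the paired fit (ELAVL3, NEFM, DPYSL3) and 4 passed the number test. MAP2, SYT1 and SNAP25 went the other way (paired log2 fold changes 0.15, 0.29 and 0.15), none of them called. The summed level of the 10 was 1263 to 1461 CPM in controls and 1005 to 1325 CPM in knockdown libraries. Of 11 mesenchymal markers 4 were higher in the paired fit and 5 passed the number test, 4 of these with number 2 highest, and their sum was 2900.4 to 3252 CPM in controls and 3445 to 4475 CPM in knockdown libraries. The other of these 5 had number 1 highest. As a single example, COL1A1 was at 52.7, 131 and 80.4 CPM in controls and 48.4, 160 and 90.6 CPM in knockdown libraries. Number 2 was highest in both groups, as in PCDHA12. Of 7 tested astroglial markers 4 were higher in the paired fit and 2 passed the number test, with a sum of 788 to 815 CPM in controls and 897 to 987 CPM in knockdown libraries, while GFAP had 0 counts in 5 libraries and 1 in knockdown library 2. Of 5 tested oligodendrocyte lineage markers and 3 pluripotency markers 0 were called in the paired fit, and 2 and 1 passed the number test. Of 12 tested neural stem cell markers 3 had an unpaired log2 fold change above 0. In the paired fit 0 of the 12 were called, and 2 passed the number test. The part of all these markers in the protocadherin differences was not tested.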

How the data were processed

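Total RNA libraries were made with a directional kit, per the labels' protocols. For every library the authors deposited a read count for each of 26485 gene symbols, judged raw because the values are whole and their totals differ. The submitters' processing notes name hg38, Trim Galore 0.6.6, STAR 2.7.10a and bedtools. The program, annotation and strand setting used for counting were not given in the sources used here. Groups and numbers came from the sample titles.

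Counts of all genes were fitted with edgeR 4.0.16 in R 4.3.3 (filterByExpr with a minimum count of 10, TMM scaling, glmQLFit and glmQLFTest, Benjamini-Hochberg adjustment over all 12937 genes tested, threshold 0.05), with group as the only term. SE values are the log2 fold change divided by the square root of F. CPM values use TMM-scaled totals, and differences within pairs use log2 CPM with a prior count of 2. DESeq2 1.42.0 and limma 3.58.1 voom were alternatives. Over the 12937 genes the deviations of same-numbered libraries from their group means correlated at 0.563, 0.467 and 0.535, all above the bound of 0.1, which was taken as pairing by number. It comes from the data and not from the labels. The paired fit adds the number as a block, and the F test of the number comes from that fit. Libraries within a group differed by more than sampling noise (chi-square per gene 3.19 or more).

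Exon lengths and coordinates came from GENCODE 29 (GRCh38), promoter sequences from RefSeq (GRCh38.p14). Bases shared with another gene's exons were left out of the length. The members and the gene lists were chosen with earlier results of these data known. Members were named where an adjusted p was under 0.05 in either fit, where they were among the 3 of highest level per length in a cluster, where they are C-type isoforms, or where they had the highest or lowest log2 fold change of a cluster; other members were named after their values were seen. The fits were tested on simulated counts.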

Additional observations from a re-analysis of the deposited data

How the results depend on the processing

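The replicate block decided the knockdown calls. Without it 0 genes were called, 2 with no filter, 142 with DESeq2 and 0 to 665 when 1 library was left out (665 without knockdown library 1, which also gave 1 member, against 0 members otherwise). With the replicate block 1296 genes and 5 members were called. Changing 1 further choice in that paired fit gave 1335 genes and 5 members with RLE size factors, 590 and 1 with DESeq2, 1283 and 3 with total count only, 2171 and 6 with no filter (PCDHGC5 added), 1328 and 5 with at least 1 CPM in 3 libraries, 1390 and 5 with voom, 715 and 3 with libraries thinned to the smallest total, and 912 to 2296 genes (1320 without pair 1) and 4 members without 1 pair. PCDHB10 and PCDHB14 were among the called members in each of these settings except DESeq2, which called PCDHB14 alone. PCDHA4 and PCDHB2 lost the call with total count only, and PCDHA12 and PCDHB2 with thinned libraries. The number test passed 2381 genes and 20 members with no filter, 446 genes with the DESeq2 likelihood ratio test, 453 with thinned libraries, and 231 to 6288 genes and 8 to 26 members without 1 library. Leaving out 1 library moved the log2 ratio of summed counts between 0.021 and 0.43 for alpha, 0.048 and 0.56 for beta and 0.019 and 0.34 for gamma.

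Of 425 alternative log2 fold changes of named members 29 changed sign, all of members not called in that setting. PCDHA6, near 0 throughout, was at -0.0041 with the block, -0.014 with total count only, -0.00076 with at least 1 CPM in 3 libraries and -0.027 with thinned libraries, and with the block besides at -0.010 (DESeq2), -0.020 (total count only), -0.0039 (no filter), -0.0048 (1 CPM) and -0.035 (thinned). PCDHAC1 was at 0.11 with thinned libraries, without and with the block. Leaving out 1 library or pair gave -0.15 to 0.15 for PCDHA6 (-0.024 and -0.078 without pairs 2 and 3), -0.30 to 1.89 for PCDHA12, -0.21 to 0.041 for PCDHAC1 (0.031 without control 2), -0.15 to 1.12 for PCDHB12 (1.09 without knockdown 1), -0.022 to 0.40 for PCDHB5, -0.73 to 0.12 for PCDHB6 (0.085 without pair 1), -0.45 to 0.87 for PCDHGA10, -0.034 to 0.58 for PCDHGB6 and -0.00057 to 0.30 for PCDHGC3. The cause of these sign changes was not tested. Of 130 alternative number tests of the 11 members 118 stayed past the threshold and 12 did not. The depth of 4962745 to 9640349 counts left 16 members below the filter, all of which were tested with no filter and some in other alternatives.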
